A study of Mus musculus with 6 samples.

Results

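Accessible chromatin at 10 genes of the absorptive enterocyte (Alpi, Sis, Lct, Fabp1, Fabp2, Apoa1, Apoa4, Vil1, Anpep and Mttp) was examined in ATAC-seq data from mouse small intestinal crypts. ATAC-seq uses a transposase to cut and tag open DNA, so that reads gather into peaks over accessible regions. A peak belonged to a gene when the deposited table of all peaks gave it exactly that gene's name, and 30 of 123510 peaks, carrying 6 of the 10 names, did so. Nuclei came from whole crypts of C57BL/6 mice, which the study's methods describe as male and give no age for. The groups were wild type (WT, 3 libraries) and Smarcad1-KO (KO, 3 libraries), in which Cre driven by Villin regulatory sequence removes floxed exons of Smarcad1, a chromatin remodeler, from the intestinal epithelium. The floxed allele was from 1 targeted line. Cells of the crypt other than epithelium keep Smarcad1 in this model, and libraries were made from 50000 unsorted cells each.

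Absorptive enterocytes are the most numerous cells of the villus. They arise from stem cells at the crypt base and mature as they move up, and their apical membrane folds into a brush border of microvilli that carries digestive enzymes. Inside the cell, absorbed fatty acids are bound by carrier proteins and packed into chylomicrons for export. The products of the genes described here are abundant in villus cells, and villi were removed by filtering before the nuclei were taken. The data therefore describe how open these genes were in crypt preparations. Whether villus cells remained was not measured.

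Depth and spread came first, because they bear on each value. The 6 libraries held 4339306 to 16301164 reads in peaks, with the fewest in KO3 and the most in WT3, and the 30 enterocyte peaks held 4 to 841 reads per library. On the first principal component of all peaks (43.8% of the variance, scores relative to the largest) the number 2 libraries of both genotypes lay at one end (-0.59 in WT2 and -0.66 in KO2) and the number 3 libraries at the other (0.30 in WT3 and 1.00 in KO3). Results are therefore given per library. Of 8 epithelial marker genes 7 had a named peak, as did 7 of 8 stromal and muscle markers and 4 of 4 endothelial markers. The T cell markers Cd3e and Cd8a had no row, and neither had the epithelial marker Epcam. Peaks of the immune genes Ptprc, Cd3g, Itgam and Lyz2 together took 0.377 to 0.379 of every 10000 reads in peaks in the number 2 libraries and 0.226 to 0.247 in the other 4.

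Peaks lay at the annotated starts of Sis, Fabp1, Fabp2, Mttp and Anpep. The 250 bases before the RefSeq start of each of these genes (GRCm38.p6) are shown, because the start peaks differed widely in strength and these bases lie fully or partly inside it. The promoter of Alpi is added as that of a gene without a row. Capitals mark motif letters on either strand. These were CAAAGTCCA or CAAAGGTCA for HNF4 and GTTAATNAT for HNF1. For CDX they were TTTATG and, in its other form, TTTATT. For GATA they were AGATAA and, in its other form, TGATAA, and for the TATA box they were TATAAA. HNF4, HNF1, CDX and GATA factors are regulators of intestinal genes. Matches may overlap, as in Sis and Fabp1.
Sis, chr3:72967864-72968113, minus strand: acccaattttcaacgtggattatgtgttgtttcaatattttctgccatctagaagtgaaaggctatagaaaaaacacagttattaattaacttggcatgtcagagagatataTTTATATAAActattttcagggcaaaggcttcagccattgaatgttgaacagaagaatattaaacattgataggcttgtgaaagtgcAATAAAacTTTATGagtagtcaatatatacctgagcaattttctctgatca
Fabp1, chr6:71199629-71199878, plus strand: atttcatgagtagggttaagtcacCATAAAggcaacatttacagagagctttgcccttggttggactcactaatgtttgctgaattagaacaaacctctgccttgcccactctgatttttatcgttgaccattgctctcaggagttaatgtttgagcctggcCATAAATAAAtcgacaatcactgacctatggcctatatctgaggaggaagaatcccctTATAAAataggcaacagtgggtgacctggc
Fabp2, chr3:122894822-122895071, plus strand: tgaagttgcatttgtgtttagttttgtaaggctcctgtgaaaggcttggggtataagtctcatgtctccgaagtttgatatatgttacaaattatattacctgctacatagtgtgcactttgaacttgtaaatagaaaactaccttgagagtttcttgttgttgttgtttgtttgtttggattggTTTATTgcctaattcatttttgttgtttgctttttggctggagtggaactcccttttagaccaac
Mttp, chr3:138143419-138143668, minus strand: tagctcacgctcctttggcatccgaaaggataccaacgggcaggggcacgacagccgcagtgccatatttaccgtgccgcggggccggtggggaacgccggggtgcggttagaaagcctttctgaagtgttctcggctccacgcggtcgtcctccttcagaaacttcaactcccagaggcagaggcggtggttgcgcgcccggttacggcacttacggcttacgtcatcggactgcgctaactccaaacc
Anpep, chr7:79848211-79848460, minus strand: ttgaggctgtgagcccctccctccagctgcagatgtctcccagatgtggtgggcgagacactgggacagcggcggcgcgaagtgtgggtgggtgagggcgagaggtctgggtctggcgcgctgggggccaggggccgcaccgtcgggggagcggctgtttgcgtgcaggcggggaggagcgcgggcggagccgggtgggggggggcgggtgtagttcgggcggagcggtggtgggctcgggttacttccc
Alpi, chr1:87101607-87101856, minus strand: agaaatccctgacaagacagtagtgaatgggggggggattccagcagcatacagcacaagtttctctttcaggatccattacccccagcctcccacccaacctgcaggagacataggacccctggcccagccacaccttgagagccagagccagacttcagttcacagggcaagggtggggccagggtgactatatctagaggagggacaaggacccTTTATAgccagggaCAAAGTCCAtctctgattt

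The promoters of Sis, Fabp2 and Fabp1 were AT-rich, with GC contents of 31.6%, 35.6% and 42.8%, while those of Mttp (61.2%) and Anpep (72.8%) were GC-rich. CDX letters were present in Sis, Fabp1 and Fabp2 and absent from Mttp and Anpep, and 25.5% of 32851 RefSeq promoters of the same length hold them. The Mttp bases lie before the upstream one of its annotated starts. In Sis the CDX matches lay 51 to 46 and 43 to 38 bases before the start. TATAAA lay 30 to 25 bases before the RefSeq start of Fabp1, and 12.4% of all promoters hold these letters. In Alpi it lay 33 to 28 bases before the start, on the other strand. RefSeq and GENCODE place the Fabp1 start at 71199879 and 71199827, and that of Mttp at 138143418 and 138143388. The HNF4 letters occurred in Alpi alone of these 6 promoters, 19 to 11 bases before the start, against 0.807% of all promoters. Of the promoters not shown, that of Lct had no peak over it and held CDX letters 31 to 26 bases before the start. It also held GATA letters, which 16.6% of all promoters hold. The 250 bases before the RefSeq starts of Apoa1, Apoa4 and Vil1 held none of the listed letters. These starts lie at 46228630, 46240844 and 74409384. In GENCODE the genes begin at 46228580, 46240696 and 74409376, so part of the bases scanned lies inside them, most of all in Apoa4. A match of letters does not show that a factor binds.

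The number of rows per gene ranged from 0 to 15 in the table used here. Sis, which encodes the sucrase-isomaltase enzyme of the brush border, carried 15 peaks along 79.3 kb of gene on chromosome 3 (chr3:72888557-72967863), and 96.9% of all 18004 names carried fewer. Mttp, whose product loads lipid onto apolipoprotein B, carried 8 (chr3:138089854-138144968), more than 90.7% of names. The hydrolase genes Lct (lactase, chr1:128284756-128328318) and Anpep (aminopeptidase N, chr7:79821803-79861059) and the fatty acid carrier Fabp2 (chr3:122895072-122899506) had 2 peaks each, which was the median over all names. Fabp1, a second fatty acid carrier (chr6:71199827-71205023), had 1, as did 42.1% of names. Per length, counting 5 kb on either side, Sis (1.68 peaks per 10 kb), Fabp2 (1.39) and Mttp (1.23) were denser than Fabp1 (0.658), Anpep (0.406) and Lct (0.373).

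The other 4 genes had no row in the table used here. Alpi encodes intestinal alkaline phosphatase, Apoa1 and Apoa4 encode apolipoproteins of chylomicrons and other lipoproteins, and Vil1 encodes villin, which bundles actin in microvilli. The closest peak to Alpi lay 6.40 kb away without a name. For Apoa1 and Apoa4 the closest was the same peak between them (chr9:46234051-46236450), 3.59 kb and 4.25 kb away, which carries the name of their neighbour Apoc3. Its WT level was 183 ± 37.7 reads per kb (SD, n = 3), above 91.4% of all peaks. Rows were also missing for 7612 of 21923 protein-coding names (34.7%), so a missing row does not show that these 4 genes were closed. It may mean that no peak was called or that the table used here does not include it.

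How open each peak was in WT crypts was measured as reads per kb of peak, on the deposited scale where 1 read of the largest library counts as 1. The peak at the upstream start of Mttp stood out (chr3:138142951-138144300, over the 5' UTR exon), with 474 reads per kb in WT1, 440 in WT2 and 623 in WT3. Its mean of 512 ± 97.3 (SD, n = 3) exceeded 99.8% of all peaks and 98.3% of the 14059 peaks within 1 kb of an annotated gene start, which are called promoter peaks here. The second, downstream annotated start of Mttp also had a peak (chr3:138130501-138131850, over a coding exon), at 143 ± 26.1 reads per kb. It lay at the 42.8th percentile of promoter peaks, so how open Mttp was at a start depends on which start is taken.

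The start peak of Sis (chr3:72967501-72968250) measured 167 reads per kb in WT1, 137 in WT2 and 285 in WT3. Its mean of 197 ± 78.2 lay at the 63.6th percentile of promoter peaks, and WT3 set it apart from the other WT libraries. The start peak of Fabp2 (chr3:122894851-122895750) varied less, with 181, 178 and 197 reads per kb in WT1 to WT3 and a mean of 185 ± 10.1, at the 59.6th percentile of promoter peaks. Sis and Fabp2 cannot be ordered, since their WT values overlap. Both places depend on dividing by peak width, since by read count per peak Sis lay at the 29.0th and Fabp2 at the 34.0th percentile. The start peak of Fabp1 (chr6:71199451-71200500) was lower, with 101, 123 and 135 reads per kb in the WT libraries and a mean of 120 ± 17.3, at the 32.0th percentile of promoter peaks. All its WT values lay below the lowest value of Sis and of Fabp2.

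Among the genes with a start peak, Anpep had the lowest. Its peak chr7:79847401-79848300, over a UTR exon, held 52.3, 89.9 and 62.2 reads per kb in WT1 to WT3, and its mean of 68.2 ± 19.5 lay above 1.72% of promoter peaks and 7.27% of all peaks. WT2 differed from the others here. Within single libraries the peak lay above 0.868% of promoter peaks in WT1, 26.7% in WT2 and 1.5% in WT3, and its mean lay above 6.86% without WT1, 0.420% without WT2 and 5.01% without WT3. Anpep has 4 annotated starts, and the peak covers a pair of them. The starts at 79842352 and 79861059 lay 5.05 kb and 12.8 kb from the nearest Anpep peak. Lct had no peak at its start. Its nearest peak began 2.87 kb inside the gene (chr1:128322601-128325450, intron) and measured 157 ± 28.2 reads per kb in WT, above 87.9% of all peaks, and the other (chr1:128313901-128315400, intron) measured 133 ± 36.2, above 83.2%.

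**Figure D1:**
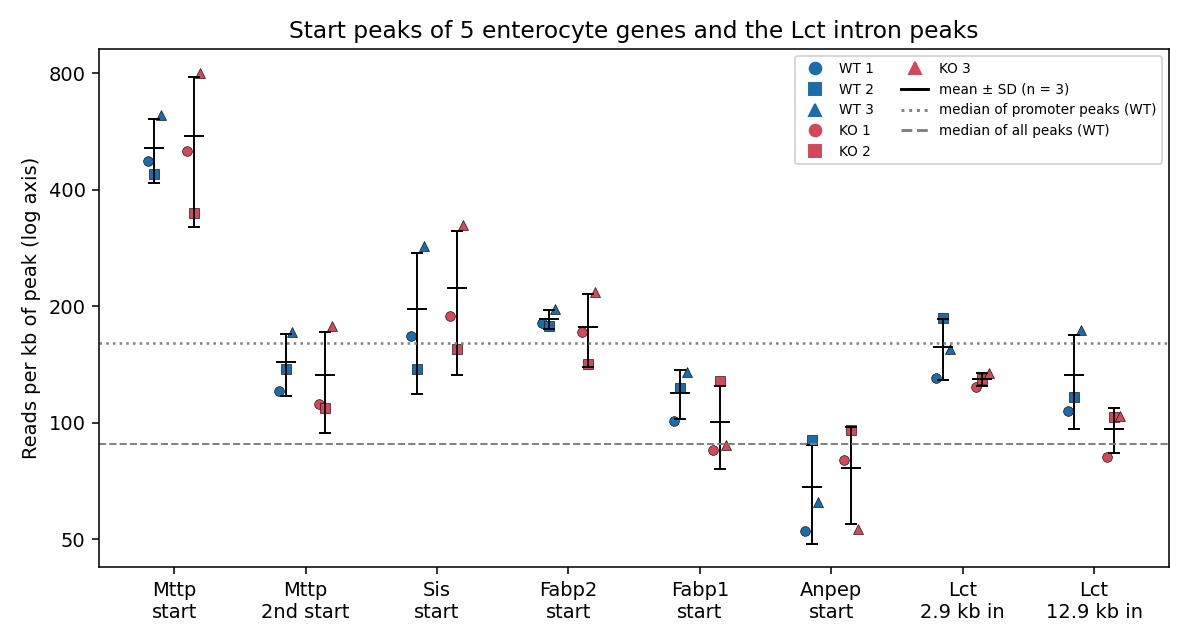
Reads per kb of peak (log axis) in each library at the start peaks of Mttp, Sis, Fabp2, Fabp1 and Anpep and at both intron peaks of Lct, where points are libraries and bars are the mean ± SD (n = 3). The upstream Mttp start lies far above the WT medians of all peaks (88.2) and promoter peaks (160). The second Mttp start (WT mean 143) lies between these medians. Anpep lies around or below the median of all peaks, and WT and KO values overlap at every start peak.

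The remaining peaks of Sis were of another kind than its start. The 14 peaks inside the gene ranged from 61.7 to 110 reads per kb in WT, and in each of the 6 libraries the start peak was higher than all of them. Mttp showed the same order in each library, with 63.4 to 175 reads per kb at its 7 other peaks in WT. Fabp2 had a wide second peak at the end of the gene (chr3:122899051-122901600, 126 ± 27.2), and Anpep a wide one inside the gene (chr7:79825051-79828650, 78.4 ± 18.0, over a coding exon). Over all 30 peaks the median WT level was 86.3 reads per kb, beside 88.2 for all peaks, and 14 of the 30 lay above the median of all peaks and 4 above the 90th percentile. By annotation 17 of the 30 lay in introns, 9 over coding exons, 3 over UTR exons and 1 in the flank of a gene.

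**Figure D2:**
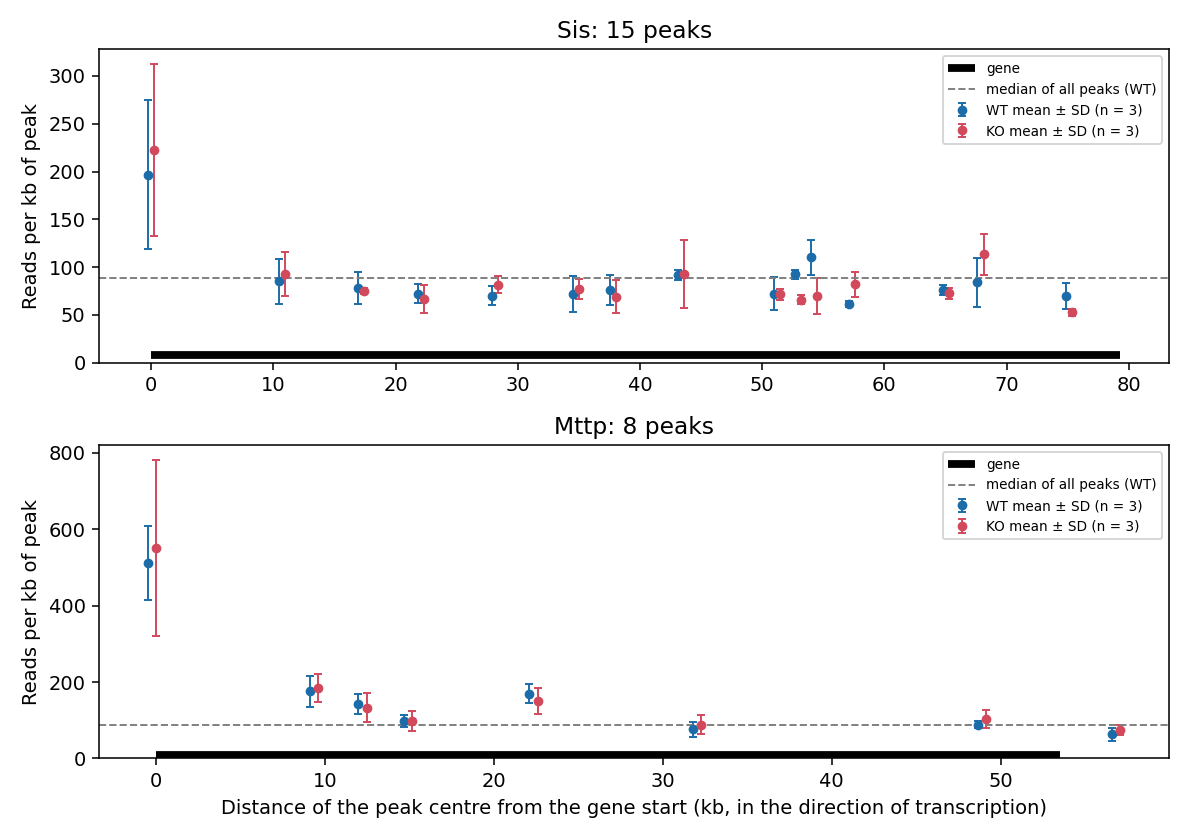
Reads per kb along Sis and Mttp against the distance of each peak's centre from the gene start, in kb along the direction of transcription, with points for the mean and bars for the SD (n = 3). In both genes the start peak is the highest, and the 14 other Sis peaks lie between 61.7 and 110 in WT, near the median of all peaks.

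The central 300 bases of the 30 peaks held CDX letters in 9 peaks (30.0%, against 29.5% of all peaks), GATA letters in 9 (30.0% against 26.7%) and TATAAA in 9 (30.0% against 13.2%), and HNF4 and HNF1 letters in 0 (against 2.57% and 1.12%). Their median GC content was 44.0%, against 48.7% for all peaks. The centre of the second Lct peak is shown because it was the Lct peak at which each KO library was lower than each WT library, described further on, with the GATA, TATA and CDX letters in capitals.
Lct intron, chr1:128314501-128314800, plus strand: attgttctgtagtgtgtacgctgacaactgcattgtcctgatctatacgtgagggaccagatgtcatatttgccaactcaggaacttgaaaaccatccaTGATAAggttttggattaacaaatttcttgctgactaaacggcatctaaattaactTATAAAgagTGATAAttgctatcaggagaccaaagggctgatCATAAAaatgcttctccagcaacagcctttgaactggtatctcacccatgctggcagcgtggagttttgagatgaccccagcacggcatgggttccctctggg

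Whether loss of Smarcad1 changed accessibility at these genes was asked per peak, by comparing the deposited log2 read counts of 3 KO with 3 WT libraries in a limma model over all peaks. None of the 30 peaks passed the test. Of them 0 passed an adjusted p-value of 0.05, as did 0% of all peaks, and 0 had an unadjusted p-value below 0.05, against 2.28% of all peaks. The smallest unadjusted p-value in limma was 0.0799 and the smallest adjusted one was 1. These counts and p-values come from the model without replicate number. With the number as a block, 3 of the 30 peaks and 8491 of all peaks had an unadjusted limma p-value below 0.05. None of the 30 passed adjustment there. Of the 30 peaks 14 had a higher and 16 a lower mean in KO. The log2 differences ran from -0.68 to 0.46 with a median of -0.01, beside -0.02 over all peaks. The median standard error of 0.29 leaves room for changes that could not be detected here, and in bulk libraries fewer enterocytes and less open chromatin per enterocyte cannot be told apart.

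At 4 of the 30 peaks (13.3%) the groups did not overlap, while 6.8% of all peaks had all KO values on one side of all WT values. KO was lower at 3 of them and higher at 1. The second Lct peak had log2 read counts of 7.33, 7.45 and 8.03 in WT1 to WT3 and of 6.93, 7.27 and 7.28 in KO1 to KO3. The gap between the lowest WT and the highest KO value was small beside the spread of WT, and the log2 difference was -0.44 (95% interval -1.07 to 0.19, limma adjusted p = 1). Without WT3, the highest library, it was -0.23.

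The other 3 were small peaks inside Sis with 4 to 43 reads per library. The peak chr3:72913501-72913800 measured 4.78, 5.27 and 5.04 in WT and 4.29, 4.77 and 4.00 in KO, a log2 difference of -0.68 (interval -1.45 to 0.09). The peak chr3:72914701-72915150, which starts under 1 kb from it, measured 5.29, 5.40 and 5.43 in WT and 4.82, 4.84 and 5.00 in KO, a difference of -0.49 (-1.07 to 0.09). Here the replicates of each group lay close together. The peak chr3:72910201-72910800, also nearby, went the other way, with 5.14, 5.20 and 5.29 in WT and 5.77, 5.73 and 5.32 in KO and a difference of 0.40 (-0.16 to 0.95). All 3 had a limma adjusted p-value of 1.

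At the start peaks the groups overlapped. Sis had log2 read counts of 6.97, 6.69 and 7.74 in WT and 7.15, 6.86 and 7.93 in KO, a difference of 0.18 with a standard error of 0.35. Mttp had 9.32, 9.21 and 9.72 in WT and 9.41, 8.88 and 10.1 in KO, a difference of 0.04 with a standard error of 0.38. In both genes the number 3 library was the highest of its genotype and the number 2 library the lowest. The median log2 read count of all promoter peaks had the same order. It was 8.0, 7.6 and 8.3 in WT1 to WT3 and 8.0, 7.6 and 8.4 in KO1 to KO3. The start peaks of Fabp2 (-0.09), Fabp1 (-0.27) and Anpep (0.16) differed by less than 1 standard error of 0.28 to 0.30.

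Among the other peaks with the smallest unadjusted p-values, the second Fabp2 peak had 8.12, 8.65 and 8.14 in WT and 8.57, 9.08 and 8.58 in KO. KO was higher within each replicate number, but the groups overlapped, and the difference was 0.44 (-0.24 to 1.12, limma adjusted p = 1). Differences of 0.46 at the Sis peak chr3:72899851-72900150, of 0.26 and 0.22 at the Mttp peaks chr3:138085651-138087450 and chr3:138094051-138094950, and of -0.39 at the Sis peak chr3:72892201-72893250 came with overlapping groups. The first fell to 0.22 without WT1, the second to 0.093 without WT3 and 0.13 without KO2, and the next to 0.043 without KO2. An unnamed peak upstream of Fabp2 (chr3:122884351-122885250), outside the rule and picked after its values were seen, measured 5.83, 7.09 and 6.13 in WT and 7.01, 7.07 and 7.08 in KO. WT1 and WT3 were low there while WT2 lay above all KO libraries, and its difference of 0.71 had a limma adjusted p-value of 1.

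**Figure D3:**
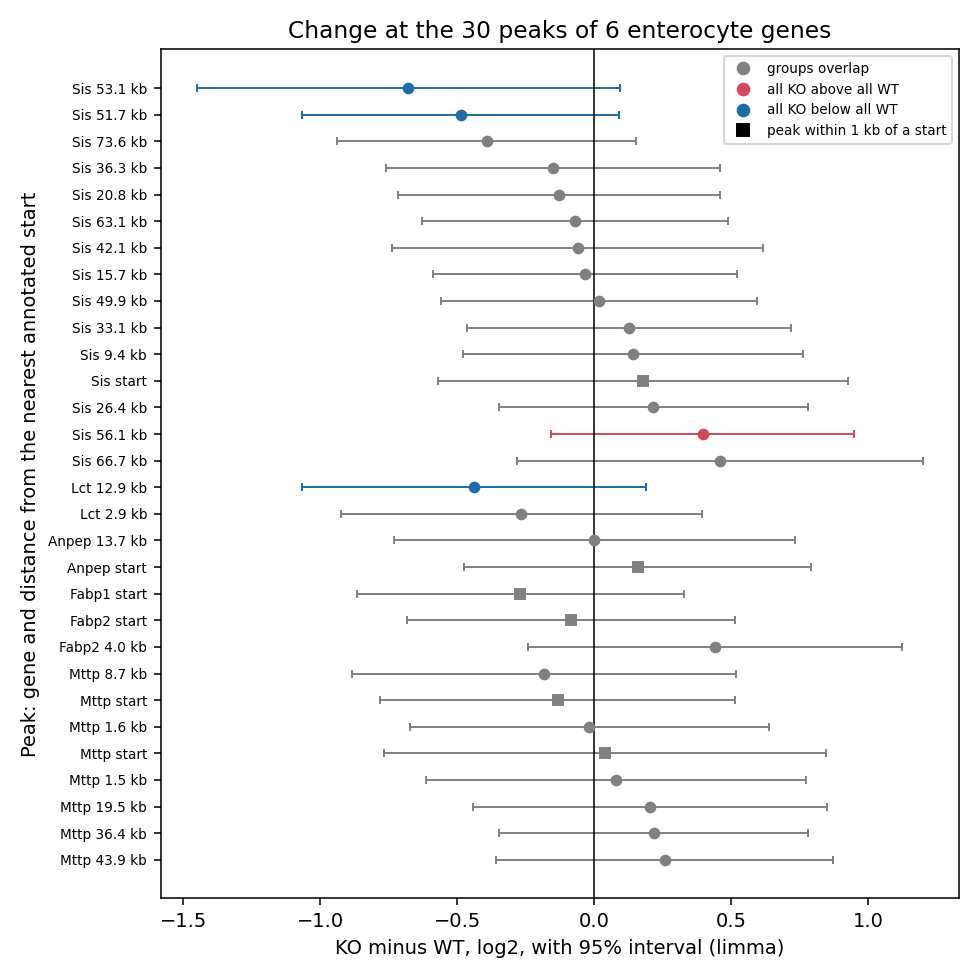
KO minus WT on the log2 scale with 95% intervals from limma for the 30 peaks of 6 enterocyte genes, each named by its distance from the nearest annotated start of its gene, with squares for peaks within 1 kb of a start. All 30 intervals include 0, and colour marks the 4 peaks at which the groups did not overlap.

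Summing all peaks of a gene gave 1 value per gene and library with more reads behind it, and these sums were tested over 18004 names. None of the 6 genes passed the test. Of them 0 passed an adjusted p-value of 0.05 (0% of all names) and 0 an unadjusted one (0.761% of all names), and the groups overlapped for each of the 6, while 3.34% of all names had groups apart. In the hydrolase genes, the summed log2 values of Lct were 9.06, 9.46 and 9.46 in WT and 8.89, 9.03 and 9.07 in KO. WT1 lay among the KO libraries and the difference was -0.33 (interval -0.86 to 0.21). Sis (0.02, -0.53 to 0.56) and Anpep (0.03, -0.63 to 0.70) had means close to equal in both groups.

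In the lipid genes, Fabp1 had 6.73, 7.01 and 7.15 in WT and 6.48, 7.07 and 6.52 in KO, a difference of -0.27 (-0.80 to 0.26). Fabp2 had 8.79, 9.13 and 8.85 in WT and 9.06, 9.39 and 9.18 in KO, a difference of 0.29 (-0.24 to 0.82). The lowest KO library of Fabp2 lay below the highest WT library, WT2. Mttp differed by 0.01 (-0.57 to 0.59). All limma adjusted p-values were 1. With the replicate number as a block, the unadjusted limma p-values were 0.0042 for summed Lct and 0.012 for summed Fabp2. The adjusted ones were 0.40 and 0.64.

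**Figure D4:**
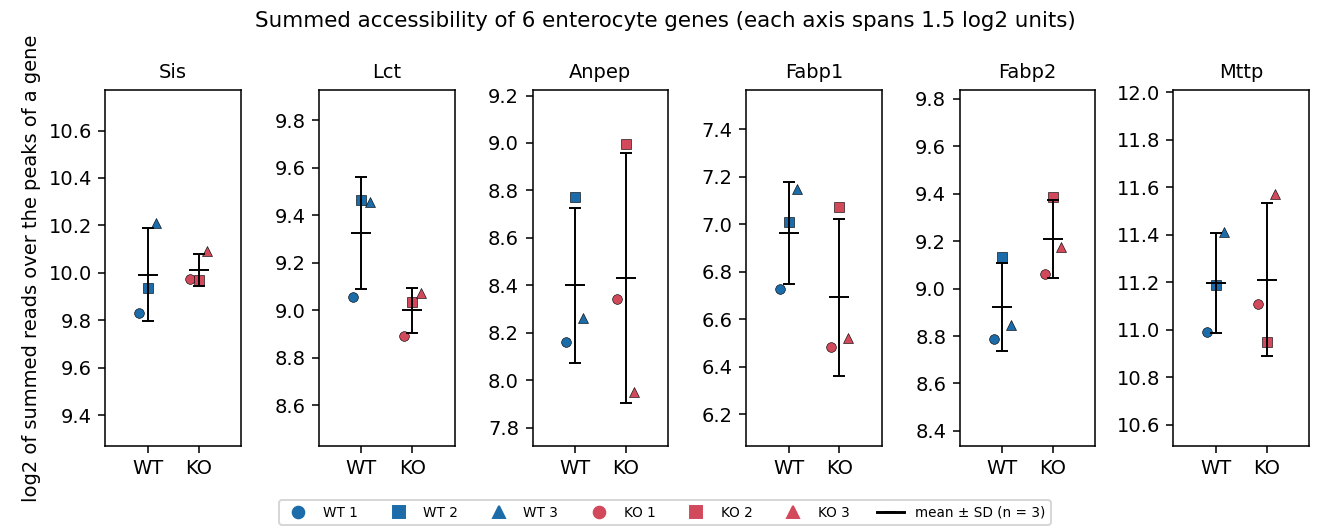
The log2 of summed reads over the peaks of each gene in the 3 WT and 3 KO libraries, with the mean and SD (n = 3), drawn on axes of equal span that do not start at 0. The groups overlap for all 6 genes, and the number 2 library (squares) is the highest of its genotype for Anpep and Fabp2.

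The spread within a genotype followed the replicate number at several of these peaks. Both number 2 libraries exceeded both number 3 libraries at 6 of the 30 peaks (20.0%, against 8.72% of all peaks), including both Anpep peaks and the second Fabp2 peak, and both number 3 libraries were higher at 9 (30.0%, against 51.3% of all peaks), including the start peaks of Mttp, Sis and Fabp2. The 30 peaks together took 4.53 and 4.35 of every 10000 reads in peaks in WT2 and KO2, and 3.10 to 3.40 in the other 4 libraries. The sums over Ptprc, Cd3g, Itgam and Lyz2 were highest in the same libraries, as given above. So were those of tuft (1.75 and 1.62, against 1.16 to 1.49), endothelial and enteroendocrine markers. Those of other absorptive genes, described further on, also were. Lipid uptake genes took 13.45 in WT2 and 12.05 in KO2, against 9.14 to 10.0 in the other libraries. Brush border hydrolase genes took 10.17 and 9.49, against 8.20 to 9.03. Brush border structure genes took 14.21 and 13.34, against 11.79 to 13.14. Goblet, Paneth, stromal and epithelial markers were not highest in both. The 6 stem cell genes with a peak were lowest in them (3.28 in WT2 and 3.59 in KO2, against 3.86 to 4.17). Over all peaks, the median log2 level of promoter peaks minus that of other peaks was also lowest in WT2 (2.11) and KO2 (2.01), against 2.24 to 2.60. The part of these differences in the enterocyte peaks was not tested.

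Over the 6 libraries the summed Sis and Mttp values followed each other (Pearson r = 0.76), as did Lct and Fabp1 (0.72), while Anpep and Mttp ran opposite (-0.61). These correlations describe 6 libraries that differ in depth. The names whose profile was most like the mean of the 6 genes, of 12293 compared, were Vps33a (r = 0.98), Zfp764 (0.98), Slc43a2 (0.97), Ceacam9 (0.96) and Trub2 (0.95). They were picked as the highest of 12293 correlations over 6 libraries, and a relation to the 6 genes was not tested.

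Other absorptive genes were taken from a list of 44 genes of brush border structure, brush border hydrolysis and lipid uptake. Of these 41 had a peak (Cdhr5, Baiap2l1 and Ace had none), with 204 peaks in all. By limma 0 of the 204 peaks and 0 of the 41 genes passed an adjusted p-value of 0.05 (0% of all peaks and of all names). Of the 204 peaks 5 had an unadjusted limma p-value below 0.05, while 2.28% of all peaks did. Of the 41 genes 0 did, beside 0.761% of all names. Groups were apart at 13 peaks (6.37%, beside 6.8% of all peaks). By gene 23 were higher and 18 lower in KO, with a median log2 difference of 0.02, beside 0.02 over all names. The genes with the smallest unadjusted p-values were Fabp6, the ileal bile acid carrier (0.43), and the brush border cadherin gene Cdhr2 (0.23) on the higher side, and the phospholipase family gene Pla2g12b (-0.20) and the peptidase gene Mme (-0.19) on the lower side, all with overlapping groups.

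The Vil1 region was looked at separately, since the Cre transgene carries Vil1 regulatory sequence and its reads cannot be told apart from those of the gene. No row of the table used here lay in Vil1 (chr1:74409376-74435559), which is not a measure of how open the gene was. The 3 peaks within 20 kb, named for the neighbours Ctdsp1 and Usp37, lay at least 10.7 kb from the gene and differed between KO and WT by 0.02, 0.00 and -0.06 on the log2 scale, with limma adjusted p-values of 1.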

How the data were processed

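ATAC-seq was performed on nuclei of small intestinal crypts from 3 WT and 3 KO mice, grouped and numbered by sample title. The authors trimmed reads with Trim Galore 0.4.1, mapped them to GRCm38 with Bowtie2 2.2.5, removed duplicates and called 1 set of MACS peaks in SeqMonk, and the libraries pooled for calling are not given in the sources used here. The deposited values are log2 read counts per peak, scaled up to the largest library, and the authors gave a peak the name of the closest gene within 5 kb. Peaks called once for all libraries miss regions open too weakly to be called. A smaller deposited table holds the authors' own edgeR comparison (an adjusted p-value) and was not used. By that test the paper reports sites with changed accessibility, mostly increased. The lack of calls over all peaks in limma therefore does not mean that no peak changed. On the linear scale 100% of values in each library were whole multiples of 1 constant (within 0.01 reads, or 0.01% above 100 reads), from which reads were recovered for depth, which covers counting only since PCR copies without molecular tags are not independent.

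The peak values were compared with limma 3.58.1 in R 4.3.3 (lmFit, eBayes with trend) on all 123510 peaks and 6 libraries, with no covariate, two-sided, with Benjamini-Hochberg adjustment and calls below 0.05. A count test was not the main test because the values are on the log2 scale. Gene values were log2 of summed linear values over all peaks of a name. Reads per kb were linear values divided by peak width. Gene positions came from GENCODE vM21 and promoter sequences from RefSeq, in which all 10 genes matched. The fits were tested on simulated data. The labels do not say how same-numbered mice are related or whether p-values cover more than the spread between these libraries.

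The 10 genes and the marker and enterocyte lists were chosen with earlier results of these data known. One marker of the immune list is not reported here. The rule named each gene's number of peaks, its highest peak at a start and anywhere, the 5 smallest unadjusted p-values in each direction, 2 genes per direction in the wider list, and the 5 most similar names averaging at least 100 reads. Alternatives were median centring, trimmed mean of M values, quantile normalization, voom on recovered reads, a pseudocount of 5, a minimum mean of 20, means of log2 values over peaks, a replicate block, each library left out, an adjusted p-value of 0.1, levels per peak, a promoter distance of 2 kb and other distances for assigning peaks to genes.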

Additional observations from a re-analysis of the deposited data

How the results depend on the processing

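No enterocyte peak or gene among the 10 passed an adjusted p-value of 0.05 in limma under any alternative, and the smallest adjusted p-value reached by a named peak or gene was 0.240, with the replicate block. Over all peaks the count of 0 became 2 with median centring, 2 with trimmed-mean scaling, 3 after quantile normalization, 3 in voom and 272 with the replicate block, and over all names 37 with the block, which also called 1 peak of the wider enterocyte list, at Dgat2 (chr7:99155251-99156450, -0.72, limma adjusted p = 0.0060 with the block and 1 without it). Leaving out 1 library gave 0 to 30 called peaks and 0 to 2 called names, the most without KO2 and 1 of each without WT3. The deviations of same-numbered libraries from their group means correlated at 0.04, 0.42 and 0.41. WT1 correlated no better with KO1 (0.036) than with KO3 (0.040), so the numbers were not taken as pairs. That reason holds for number 1 only. WT2 and KO3 correlated at -0.35 and WT3 and KO2 at -0.46. Deviations from a group mean cancel within the group, so these values are not independent of the same-number ones. The same-number values of 0.42 and 0.41 show a spread shared within numbers 2 and 3, for which the main model has no term. With the block, the unadjusted limma p-value was 0.0015 at the second Fabp2 peak (adjusted 0.24). It was 0.0070 at the Lct peak with groups apart (adjusted 0.44) and 0.0495 at the other Lct peak (adjusted 0.73).

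The percentile of a start peak among promoter peaks fell to 29.0 for Sis, 34.0 for Fabp2 and 90.2 for Mttp when levels were not divided by peak width, while that of Anpep rose from 1.72 to 10.0 and Fabp1 moved from 32.0 to 25.7. Leaving out each WT library gave 0.420 to 6.86 for Anpep. Counting peaks within 20 kb of a gene gave 53 peaks and all 10 genes at least 1.

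Directions close to 0 turned. Summed Sis was -0.031 with means of log2 values, and summed Mttp -0.0061 after quantile normalization and -0.0089 in voom. The Anpep peak inside the gene, at -0.00078, was 0.0081 with median centring, 0.0065 with trimmed-mean scaling, 0.017 after quantile normalization, 5.8e-05 with a pseudocount of 5 and 0.022 in voom. Leaving out each library gave -0.062 to 0.13 for summed Sis, -0.25 to 0.27 for summed Anpep, -0.17 to 0.14 for summed Mttp, -0.13 to 0.48 for the Sis start peak, -0.27 to 0.33 for the Mttp start peak, -0.24 to 0.063 for the Fabp2 start peak, -0.026 to 0.40 for the Anpep start peak and -0.31 to 0.24 for the other Anpep peak. Other named peaks and summed genes kept their direction in each alternative run, but 1 library could move their size by over 1.5 times. Leaving out each library gave -0.58 to -0.23 for the Lct peak with groups apart, -0.40 to -0.14 for the other Lct peak, -0.46 to -0.16 for Fabp1, 0.27 to 0.61 for the second Fabp2 peak, 0.22 to 0.68 for the Sis peak at 72899851, and 0.093 to 0.46 and 0.043 to 0.33 for the Mttp peaks at 138085651 and 138094051. With 4 to 841 reads per peak and library and 3 libraries a group, small changes could not be detected.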
